A study of Mus musculus with 6 samples.

Results

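The genes described here encode the proteins of mitochondrial oxidative phosphorylation, measured in mouse skin tumors and healthy skin. They were chosen by name: every probe on the array, other than control probes, whose gene name begins with Nduf, Uqcr, Atp5 or Cox4 to Cox8, or is Sdha, Sdhb, Sdhc or Sdhd. That rule took 126 probes for 90 of the 36095 names on the array. Among them, the muscle isoforms Cox6a2, Cox7a1 and Cox8b were set against the other 87. The rule also took 7 assembly or coupling factors and 2 genes whose products are not regarded as subunits, Ndufa4l2 and Cox4nb.

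RNA came from 3 biopsies of skin tumors and 3 of healthy skin, all from female mice of the inbred strain FVB/N, and each biopsy was measured on its own 1-colour array. Tumors, which the labels call cSCC (cutaneous squamous cell carcinoma), were raised with the mutagen DMBA, followed by the phorbol ester PMA (also called TPA) 2 times a week for 6 weeks, a further dose of DMBA and PMA for 14 more weeks. Healthy skin received the solvent acetone. Treated skin without a tumor was not among the samples, so what the tumor did and what the treatment did cannot be told apart. Nothing in the labels says that each biopsy is from another mouse, and p-values therefore reflect only how these samples vary.

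Oxidative phosphorylation couples the oxidation of NADH and succinate to the synthesis of ATP. Complex I (NADH dehydrogenase) and complex II (succinate dehydrogenase) pass electrons through complex III to complex IV (cytochrome c oxidase), which reduces oxygen, and complex V (ATP synthase) uses the proton gradient that complexes I, III and IV build. Most subunits are made in every tissue, but a few nuclear-encoded subunits of cytochrome c oxidase exist as pairs, with 1 form in most tissues and another in striated muscle: Cox6a1 and Cox6a2, Cox7a2 and Cox7a1, and Cox8a and Cox8b. Cox7a1 and Cox8b are also made in brown fat, and mouse skin lies on a thin sheet of striated muscle, the panniculus carnosus.

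The promoters of the muscle isoforms and of their widely expressed counterparts are shown because the muscle isoforms moved together in these data while their counterparts did not pass the test. Each runs 5′ to 3′ on the gene's strand, over 300 bases that end a little inside the gene, from RefSeq (GRCm38.p6). The 2 muscle promoters lie at chr7:30183921-30184220 (Cox7a1, plus strand) and chr7:140900397-140900696 (Cox8b, minus strand), and the other 3 at chr5:115348909-115349208 (Cox6a1), chr9:79759804-79760103 (Cox7a2) and chr19:7217567-7217866 (Cox8a), all on the minus strand. Capitals mark matches, on either strand, to an E-box (CANNTG, bound by myogenic factors among others), to the centre of the NRF1 site (GCATGCGC) and to a site of GABP (CCGGAAG); the last 2 factors are known regulators of respiratory genes.
Cox7a1: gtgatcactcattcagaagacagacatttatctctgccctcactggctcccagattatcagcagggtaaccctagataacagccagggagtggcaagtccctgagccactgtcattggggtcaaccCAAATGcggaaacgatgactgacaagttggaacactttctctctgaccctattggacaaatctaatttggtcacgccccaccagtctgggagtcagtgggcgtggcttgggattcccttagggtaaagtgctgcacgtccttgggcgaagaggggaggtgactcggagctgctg
Cox8b: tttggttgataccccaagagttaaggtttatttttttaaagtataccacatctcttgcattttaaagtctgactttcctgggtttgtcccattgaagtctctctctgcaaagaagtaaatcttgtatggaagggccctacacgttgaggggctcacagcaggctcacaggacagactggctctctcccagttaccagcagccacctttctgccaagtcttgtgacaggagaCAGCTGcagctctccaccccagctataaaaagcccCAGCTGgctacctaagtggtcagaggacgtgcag
Cox6a1: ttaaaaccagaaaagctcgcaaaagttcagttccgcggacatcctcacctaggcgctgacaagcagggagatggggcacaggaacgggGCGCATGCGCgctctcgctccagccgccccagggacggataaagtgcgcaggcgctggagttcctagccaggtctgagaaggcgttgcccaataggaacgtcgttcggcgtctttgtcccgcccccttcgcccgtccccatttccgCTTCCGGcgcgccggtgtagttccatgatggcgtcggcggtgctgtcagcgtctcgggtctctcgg
Cox7a2: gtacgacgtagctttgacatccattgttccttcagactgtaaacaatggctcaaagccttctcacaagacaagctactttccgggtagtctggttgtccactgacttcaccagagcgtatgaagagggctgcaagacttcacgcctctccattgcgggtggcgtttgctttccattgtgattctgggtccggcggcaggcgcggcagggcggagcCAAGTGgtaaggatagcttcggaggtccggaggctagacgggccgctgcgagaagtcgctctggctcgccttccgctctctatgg
Cox8a: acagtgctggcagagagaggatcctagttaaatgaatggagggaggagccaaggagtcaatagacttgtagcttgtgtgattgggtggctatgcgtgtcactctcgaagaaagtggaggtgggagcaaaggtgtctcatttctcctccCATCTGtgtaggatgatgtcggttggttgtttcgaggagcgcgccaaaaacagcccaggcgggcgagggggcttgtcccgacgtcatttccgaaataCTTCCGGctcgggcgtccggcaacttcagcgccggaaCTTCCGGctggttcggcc

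The letters searched for NRF1 and GABP were chosen after the promoters had been seen, and a match is only a description of these letters. Both muscle promoters held an E-box, as did 69.2% of 78 promoters of 72 other genes of the set and 72.3% of all 32851 promoters of this length. Neither held GCATGCGC, which was in 14.1% of the other genes' promoters and 2.71% of all promoters. CCGGAAG was likewise in neither, in 21.8% of the other genes' promoters and in 8.86% of all. The overlapping capitals in Cox6a1 are 2 matches to GCATGCGC, 1 on each strand, and Cox8a has 2 matches to CCGGAAG. Cox7a2 held 1 E-box and neither of the other motifs, as did Cox7a1. The consensus of MEF2, a transcription factor of muscle genes, matched none of the muscle promoters or the other genes' promoters and 3.19% of all. Cox6a2 has no promoter shown.

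All 3 muscle isoforms lie on chromosome 7, which holds 10 tested genes of the set in all, the higher gene Ndufab1 among them. The Cox7a1 probe reads the coding sequence across an intron, with ends at positions 30970337 and 30970948 of chromosome 7 (mm9, the build of the array's annotation).
Cox7a1 probe: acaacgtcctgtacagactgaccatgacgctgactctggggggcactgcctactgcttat
The Cox6a2 probe lies at chr7:135349160-135349219 and the Cox8b probe at chr7:148084852-148084911 (mm9).

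Of the 90 genes, 88 could be tested, and each of these was well above background on all 6 arrays. Cox7b2 and Cox8c, both testis isoforms of cytochrome c oxidase, were not well above background on any array. Tumors differed from healthy skin in 5 of the 88 (limma, Benjamini-Hochberg adjusted p under 0.05 over all features), a share of 5.68%. Across all 24757 features the share was 25.9%. The muscle isoforms made up the 3 lower genes (15.6% of all features were lower), and the 2 higher genes were Ndufab1 and Cox4nb (10.3% of all features were higher). The remaining 83 did not pass the test.

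Values below are log2 signals relative to the 75th percentile of each array, and a difference of 1 is a factor of 2 between the groups. Levels of different probes are not compared. Between 48.7% and 65.4% of the probe spots on an array were well above background. Tumor 1 had a median background of 85 intensity units, and the other 5 arrays 23 to 26. Healthy skin 3 was dimmer than the rest: its 75th percentile was 242 units, and that of the others 525 to 897. Slide rows were read from the names of the scans. By these, all 3 tumor arrays and healthy skin 3 lay in row 2 of the slide, and healthy skin 1 and 2 in row 1.

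Cox6a2, the striated muscle form of subunit VIa, had log2 signals of 0.90, 1.42 and 0.29 in tumors 1 to 3, against 5.73, 6.21 and 6.12 in healthy skin 1 to 3. Every tumor lay more than 4 units below every healthy skin sample. In tumors the signal was lower by a factor of 35.5 (log2 fold change -5.15 ± 0.36 SE, limma adjusted p = 0.000374).

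Cox7a1, the muscle form of subunit VIIa, had log2 signals of 0.11, -0.73 and 0.22 in tumors, against 3.97, 4.07 and 4.56 in healthy skin. The groups did not overlap, and healthy skin 3 was the highest array. In tumors the signal was lower by a factor of 20.2 (log2 fold change -4.33 ± 0.36 SE, limma adjusted p = 0.000579).

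Cox8b, the muscle form of subunit VIII, had log2 signals of -0.42, -0.38 and -0.65 in tumors, against 4.86, 4.79 and 4.88 in healthy skin. Both groups were tight, with SDs of 0.15 in tumors and 0.05 in healthy skin (n = 3 each), and they did not overlap. In tumors the signal was lower by a factor of 40.2 (log2 fold change -5.33 ± 0.25 SE, limma adjusted p = 0.000158). In a bulk biopsy, fewer cells of a type and less RNA per cell cannot be told apart.

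The widely expressed counterparts did not pass the test. Cox6a1 had log2 signals of 7.88, 7.55 and 7.39 in tumors, against 6.90, 7.13 and 7.80 in healthy skin, a log2 fold change of 0.33 with a 95% interval of -0.44 to 1.11. The groups overlapped, with healthy skin 3 among the tumor values. Cox7a2 had 4.95, 4.32 and 4.28 in tumors, against 4.12, 4.40 and 5.22 in healthy skin, and its log2 fold change was -0.06 (-0.95 to 0.82). Cox8a had 7.21, 6.49 and 6.33 in tumors, against 5.99, 6.23 and 7.03 in healthy skin, and its log2 fold change was 0.26 (-0.65 to 1.17). For all 3 counterparts, tumor 1 was the highest tumor array and healthy skin 3 the highest healthy skin array, and the groups overlapped.

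**Figure D1:**
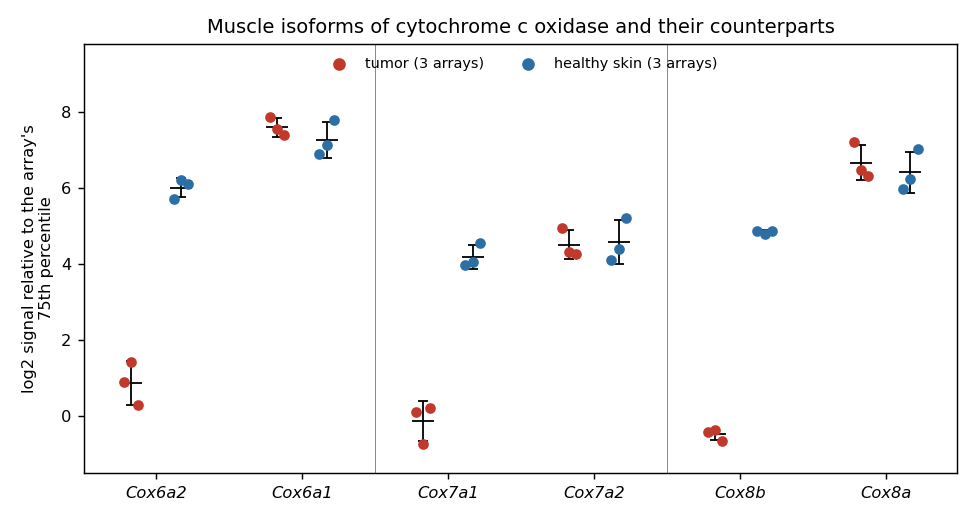
Log2 signal relative to the array's 75th percentile (vertical axis) for each muscle isoform and the widely expressed counterpart to its right, with tumor arrays in red to the left of healthy skin arrays in blue. Points are arrays and black marks give the mean and SD of 3. For Cox6a2, Cox7a1 and Cox8b the group means differ by 4.33 to 5.33 units and the groups do not overlap, while they overlap for Cox6a1, Cox7a2 and Cox8a.

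The change of each muscle isoform relative to its counterpart was taken within arrays, which removes any factor that scales a whole array. Cox6a2 minus Cox6a1 was -6.98, -6.13 and -7.10 in tumors, against -1.17, -0.92 and -1.68 in healthy skin, a shift of -5.48 (44.7-fold). Cox7a1 minus Cox7a2 was -4.84, -5.05 and -4.06 in tumors, against -0.15, -0.34 and -0.66 in healthy skin, a shift of -4.27 (19.3-fold). Cox8b minus Cox8a was -7.63, -6.87 and -6.98 in tumors, against -1.12, -1.44 and -2.14 in healthy skin, a shift of -5.59 (48.2-fold). The groups did not overlap for any of the 3 pairs. Each shift had p = 0.1 by an exact two-sided permutation test, also after adjustment over the 3 pairs, which is the smallest p that 3 arrays against 3 allow.

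Over the 85 other tested genes, the median log2 fold change was -0.01, with quartiles of -0.34 and 0.32 and a range of -1.39 to 1.82. Across all features the median was -0.16. Across the 5830 brighter features, those with a mean level over 2, it was 0.16. Of those 5830, 4195 estimates lay within 1 of 0, and 756 were called higher and 465 lower. Of the 85, 42 estimates were positive and 43 negative, 58 lay within 0.5 of 0 and 80 within 1, against 63.3% of all features within 1. In 33 of them the whole 95% interval lay within a 2-fold change in either direction. For the rest the interval reached past 2-fold, so a change of more than 2-fold is not excluded. The 3 tumors lay above all 3 healthy skin samples in 9 of the 85 and below them in 10, while the same held for 20.7% and 29% of all features. On single arrays the median level of these 85 genes was 5.06, 4.68 and 4.52 in tumors, against 4.71, 4.99 and 5.32 in healthy skin. The mean level of the 3 muscle isoforms minus that median was -4.87, -4.57 and -4.57 in tumors, against 0.15, 0.03 and -0.13 in healthy skin.

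**Figure D2:**
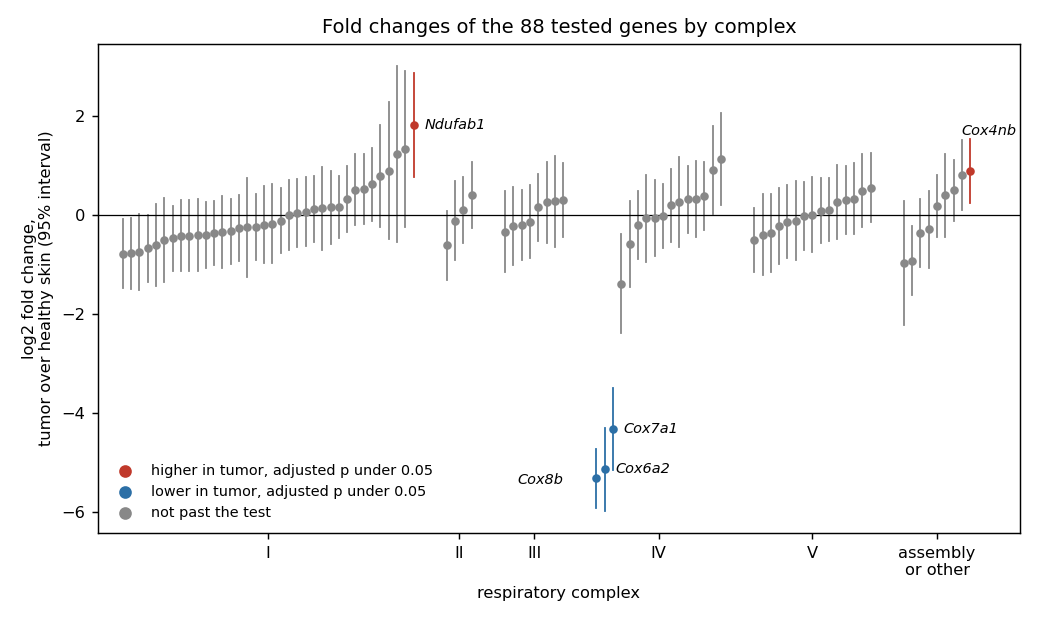
Log2 fold change of tumor over healthy skin with its 95% interval (vertical axis) for the 88 tested genes, grouped by complex and sorted within it. Red marks the 2 genes called higher in tumor, blue the 3 called lower (Cox8b, Cox6a2 and Cox7a1), grey the 83 that did not pass the test.

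Complex I, with 36 tested genes, had 1 called gene and a median log2 fold change of -0.18. The 7 core subunits, which carry the flavin, the iron-sulfur clusters or parts of the quinone site, had a median of -0.24 and the 29 accessory subunits one of -0.17. Ndufab1, the mitochondrial acyl carrier protein, which is part of complex I and of mitochondrial fatty acid synthesis, was the called gene. Its log2 signals were 2.52, 0.81 and 1.21 in tumors, against -0.40, -0.34 and -0.20 in healthy skin. All tumors lay above all healthy skin samples, tumor 1 most (log2 fold change 1.82 ± 0.45 SE, limma adjusted p = 0.0253). The call was lost without healthy skin 1, 2 or 3 in turn (adjusted p = 0.0649, 0.0675 and 0.0577), with log2 fold changes of 1.78, 1.81 and 1.88.

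None of the other 35 complex I genes passed the test. The lowest estimates were those of Ndufs7, a core subunit next to the quinone site (-0.78, 95% interval -1.48 to -0.08), Ndufa5 (-0.77, -1.49 to -0.05) and Ndufb4 (-0.75, -1.52 to 0.02). In each of these 3 the tumors lay below all healthy skin samples, and each was called lower in 3 of 20 alternative settings, quantile normalization and the authors' deposited values among them. A second, dimmer Ndufa5 probe upstream on the transcript had an estimate of -0.14 with overlapping groups. The second Ndufb4 probe had -0.70, with the groups apart. Ndufa9, a subunit that helps to hold complex I together, was the closest to 0, with an interval of -0.70 to 0.70. Ndufa10 (1.34, -0.23 to 2.92) and Ndufs8 (0.90, -0.49 to 2.29) were among the highest estimates, with wide intervals.

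In Ndufa10, Ndufs8 and Ndufa11, healthy skin 3 lay more than 1 unit below the mean of healthy skin 1 and 2. Ndufa10, an accessory subunit, had log2 signals of 3.24, 3.40 and 2.67 in tumors, against 2.49, 2.68 and 0.10 in healthy skin. The groups overlapped, with healthy skin 3 far below the other arrays. Without healthy skin 3 its log2 fold change was 0.52, and those of Ndufs8 and Ndufa11 were 0.20 and 0.32. None of the 3 was called with or without that array.

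Complex II has 4 nuclear-encoded subunits, and none passed the test (median log2 fold change 0.00). Sdha, the flavoprotein that oxidises succinate, had log2 signals of 4.10, 3.77 and 3.46 in tumors, against 3.32, 3.54 and 3.26 in healthy skin (0.40, 95% interval -0.27 to 1.08). Sdhb, the iron-sulfur subunit, had 4.90, 4.77 and 4.55 in tumors, against 5.11, 5.15 and 5.78 in healthy skin (-0.61, -1.31 to 0.10). The groups were apart for this Sdhb probe and overlapped for Sdha. A second, dimmer Sdhb probe upstream on the transcript had an estimate of 0.51 with overlapping groups, so the sign differed between the probes. On the upstream probe healthy skin 3 was at 1.21, against 2.87 and 3.01 on healthy skin 1 and 2. The membrane anchor Sdhc had 3.43, 3.92 and 3.06 in tumors, against 3.27, 3.49 and 3.96 in healthy skin (-0.11, -0.90 to 0.69). The other anchor, Sdhd, had 4.60, 4.31 and 4.02 in tumors, against 4.17, 4.40 and 4.02 in healthy skin (0.11, -0.56 to 0.78). In both anchors the groups overlapped.

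Complex III, with 8 tested genes, stayed in a narrow range. Its estimates ran from -0.34 (Uqcr11) to 0.31 (Uqcrc1), none was called, and the groups overlapped in all 8. Uqcr10, a small accessory subunit, was the closest to 0 (-0.13, 95% interval -0.88 to 0.61). The 3 core genes of the set, Uqcrc1, Uqcrc2 and the Rieske iron-sulfur protein Uqcrfs1, had estimates of 0.31, 0.26 and 0.28.

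Complex V, with 15 tested genes, also had none called, with a median of 0.01 and a range of -0.51 (Atp5h) to 0.55 (Atp5g3). The membrane ring of ATP synthase is built from 1 protein, subunit c, which is encoded by 3 genes that differ in their import sequence. Atp5g1 had log2 signals of 6.15, 6.16 and 5.71 in tumors, against 5.66, 5.86 and 6.47 in healthy skin (0.01, 95% interval -0.74 to 0.77). Atp5g2 had 6.99, 6.63 and 6.12 in tumors, against 6.37, 6.65 and 7.05 in healthy skin (-0.11, -0.90 to 0.69). Atp5g3 had 6.95, 6.44 and 6.17 in tumors, against 5.88, 6.06 and 5.96 in healthy skin (0.55, -0.14 to 1.25). The groups were apart for Atp5g3 and overlapped for Atp5g1 and Atp5g2.

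Complex IV without the muscle isoforms had 13 tested genes, none called, with a median of 0.20. For the 11 widely expressed genes the median was 0.26 and the range -0.20 to 1.14. Cox4i1, the common form of subunit IV and the closest to 0, had log2 signals of 6.49, 6.40 and 6.04 in tumors, against 6.15, 6.45 and 6.38 in healthy skin (-0.02, 95% interval -0.66 to 0.62). Cox4i2, the form known from lung and from low oxygen, had -0.65, -1.03 and -0.93 in tumors, against -0.68, -0.61 and 0.44 in healthy skin (-0.58, -1.45 to 0.28). The groups overlapped in both.

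Cox6b1 and Cox6b2 encode the common and the testis form of subunit VIb, and they had estimates of opposite sign near the threshold. Cox6b1 had log2 signals of 4.01, 2.92 and 3.01 in tumors, against 2.25, 2.55 and 1.71 in healthy skin (1.14 ± 0.40 SE, limma adjusted p = 0.0716). Cox6b2 had -1.35, -1.74 and -1.04 in tumors, against -0.34, -0.50 and 0.88 in healthy skin (-1.39 ± 0.43 SE, adjusted p = 0.0504). The groups did not overlap in either gene, and neither passed the test. Cox6b2 passed it in 7 of 20 alternative settings and Cox6b1 in 2 of 20.

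Cox7b, the common form of subunit VIIb, had log2 signals of 5.82, 5.45 and 5.58 in tumors, against 5.0, 5.27 and 5.61 in healthy skin (0.32, 95% interval -0.35 to 1.0). The groups overlapped. Ndufa4, named for complex I and now counted as a subunit of cytochrome c oxidase, had 6.89, 6.00 and 5.58 in tumors, against 5.02, 5.35 and 5.32 in healthy skin (0.92 ± 0.38 SE, limma adjusted p = 0.113). Its paralog Ndufa4l2, known as a target of the hypoxia factor HIF-1, had 5.30, 4.53 and 3.40 in tumors, against 4.76, 5.40 and 5.96 in healthy skin (-0.97 ± 0.54 SE, adjusted p = 0.215). Neither was called, with the groups apart for Ndufa4 and overlapping for Ndufa4l2.

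Among the assembly factors none of 7 was called, with a median log2 fold change of 0.19. Ndufaf1, an assembly factor of complex I, had the lowest estimate of them (-0.92 ± 0.30 SE, limma adjusted p = 0.0581), and Ndufaf2, another, the highest (0.82, adjusted p = 0.0871). Atp5s was the closest to 0 of the genes outside the complexes (0.19, 95% interval -0.44 to 0.82). Cox4nb, which lies beside Cox4i1 and is now named Emc8, a subunit of the endoplasmic reticulum membrane protein complex, had log2 signals of 1.73, 1.28 and 1.24 in tumors, against 0.57, 0.60 and 0.38 in healthy skin. The groups did not overlap (0.90 ± 0.28 SE, limma adjusted p = 0.0490). The call was lost when any 1 of the 6 arrays was left out (adjusted p = 0.0684 to 0.121).

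Genes that serve the complexes were read from lists chosen with earlier results of these data known, and the lists were not tested as sets. Shares of all features to set beside every list count below, cell type lists included, are 10.3% higher and 15.6% lower. Of 28 tested electron carriers and assembly factors outside the name rule, 2 were called higher and 0 lower, with a median log2 fold change of 0.28. These were Cox10, which makes heme for cytochrome c oxidase (1.44 ± 0.43 SE, limma adjusted p = 0.0460), and Taco1, a translational activator of a mitochondrial subunit (1.16 ± 0.35 SE, adjusted p = 0.0478). Cox10 cleared the background on 2 of the 3 healthy skin arrays, and its estimate was 0.26 with another background correction (normexp). Without any 1 of the arrays tumor 1, 2 or 3 or healthy skin 2 or 3, neither Cox10 nor Taco1 was called (adjusted p = 0.0626 to 0.124), and Taco1 was not called without healthy skin 1 either (0.0679). Cytochrome c1 (Cyc1, 0.64, 95% interval -0.25 to 1.54) and cytochrome c (Cycs, 0.53, -0.15 to 1.20) did not pass the test. Of 15 tricarboxylic acid cycle genes none was called in either direction, with a median of -0.01.

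The exchange of nucleotides and phosphocreatine across the mitochondrial membranes had isoforms on both sides. Slc25a4, the adenine nucleotide translocase of heart and muscle, had log2 signals of 5.66, 5.72 and 5.31 in tumors, against 6.98, 7.30 and 6.50 in healthy skin. Slc25a5, the form typical of growing cells, had 5.02, 4.35 and 5.09 in tumors, against 3.65, 3.69 and 3.44 in healthy skin. The groups did not overlap in either gene: Slc25a4 was 2.58-fold lower (-1.37 ± 0.31 SE, limma adjusted p = 0.0190) and Slc25a5 2.34-fold higher in tumors (1.23 ± 0.31 SE, adjusted p = 0.0256). These calls depended on single arrays and on the scaling. Both were lost with spike-in scaling, with log2 fold changes of -0.50 for Slc25a4 and 2.10 for Slc25a5, and without a detection filter. Slc25a4 was called in 12 and Slc25a5 in 11 of 20 alternative settings, and among the losses were those with median scaling (adjusted p = 0.0532) for Slc25a4 and with quantile normalization (adjusted p = 0.0583) for Slc25a5. Slc25a4 was not called without tumor 2, tumor 3, healthy skin 1 or healthy skin 2 (adjusted p of at most 0.0703), and Slc25a5 was not called without tumor 1, tumor 3, healthy skin 1 or healthy skin 2 (0.0712, 0.0757, 0.0667 and 0.0677).

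Ckmt2, the mitochondrial creatine kinase of striated muscle, had log2 signals of -0.65, -1.74 and -2.79 in tumors, against 3.58, 4.23 and 2.99 in healthy skin. The groups did not overlap, and the signal was 40.1-fold lower in tumors (-5.33 ± 0.58 SE, limma adjusted p = 0.00135). Its widely expressed counterpart Ckmt1 had 5.97, 4.44 and 5.07 in tumors, against 4.86, 4.91 and 5.93 in healthy skin, and the groups overlapped (-0.07, 95% interval -1.20 to 1.05). Of the 10 tested genes of this list 2 were higher and 3 lower, the cytosolic muscle creatine kinase Ckm also among the lower ones (-4.45 ± 0.95 SE, adjusted p = 0.0151). Ckm was at 1.87 on healthy skin 3, against 5.39 and 5.34 on healthy skin 1 and 2. Its log2 fold change was -5.61 without healthy skin 3, -3.85 without healthy skin 1 and -2.11 when slide row was a block, and the call was lost with spike-in scaling (-3.58, adjusted p = 0.0502). The other higher gene, named after its value was seen, was the outer membrane channel Vdac2 (0.95 ± 0.25 SE, adjusted p = 0.0320), which was called without healthy skin 3 but not without any other 1 array (0.0653 to 0.106).

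Of 15 tested regulators of mitochondrial biogenesis, 4 were lower and 0 higher, where 15.6% of all features were lower and 10.3% higher. Ppargc1a, the coactivator PGC-1α, had log2 signals of -5.80, -4.87 and -4.55 in tumors, against -0.20, -0.49 and 0.42 in healthy skin. It was well above background on 2 of 3 tumor arrays, the groups did not overlap, and the log2 fold change was -4.98 ± 0.42 SE (limma adjusted p = 0.000626). Its size changed with the processing: it was -3.21 with normexp and -3.49 in the authors' deposited values, and called in both. Ppargc1b, its paralog PGC-1β, had -2.40, -3.11 and -3.14 in tumors, against -0.97, -1.23 and -1.27 in healthy skin (-1.73 ± 0.31 SE, adjusted p = 0.00826). The nuclear receptor Esrrb was lower as well (-1.65 ± 0.32 SE, adjusted p = 0.0108). With spike-in scaling neither Ppargc1b (-0.86, adjusted p = 0.429) nor Esrrb (-0.78, 0.458) was called, and Esrrb was not called with normexp either (-1.02, 0.0530). Nrf1 (0.17, 95% interval -0.54 to 0.88), a regulator of respiratory genes, Tfam (0.88, -0.18 to 1.94), which packages mitochondrial DNA, and Esrra (0.39, -0.29 to 1.06), a nuclear receptor that works with PGC-1α, were not called.

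**Figure D3:**
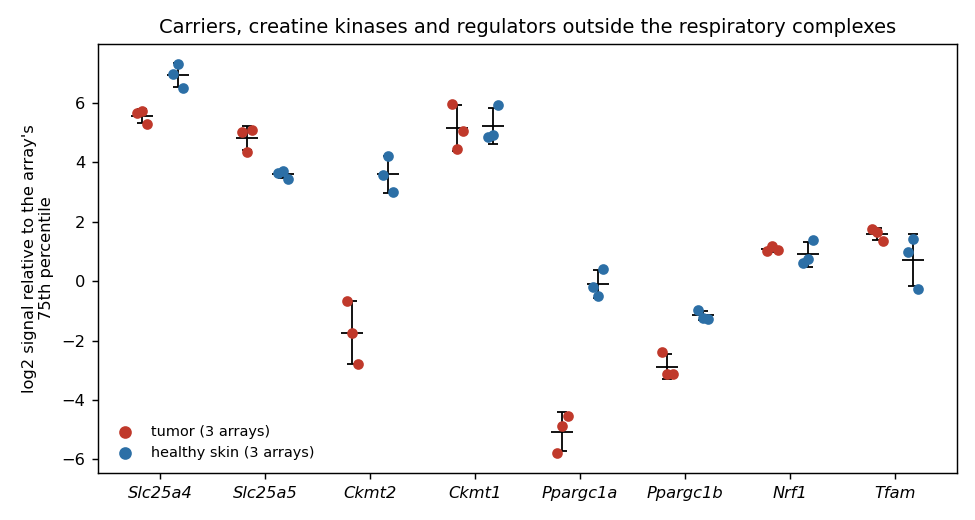
Log2 signal relative to the array's 75th percentile (vertical axis) for 2 adenine nucleotide translocases, 2 mitochondrial creatine kinases and 4 regulators, with tumor arrays in red to the left of healthy skin arrays in blue. Points are arrays and black marks the mean and SD of 3. Slc25a4, Ckmt2, Ppargc1a and Ppargc1b lie lower in tumors and Slc25a5 higher, while the groups overlap for Ckmt1, Nrf1 and Tfam.

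Of 12 tested genes of fatty acid oxidation and uptake, 4 were lower (15.6% of all features) and 0 higher (10.3%), with a median of -0.41. The largest falls were those of Fabp3, the fatty acid binding protein of heart and muscle (-4.19 ± 0.57 SE, limma adjusted p = 0.00291), Cpt1b, the muscle form of carnitine palmitoyltransferase (-2.61 ± 0.57 SE, adjusted p = 0.0163), and the fatty acid transporter Cd36 (-2.34 ± 0.68 SE, adjusted p = 0.0415). The estimate of Fabp3 was -4.86 without healthy skin 1, that of Cpt1b -3.28 without tumor 1 and that of Cd36 -3.12 without tumor 3. Cpt1b was not called with spike-in scaling (-1.74, adjusted p = 0.112) or without tumor 2 or healthy skin 3 (0.0519 and 0.0559). Cd36 was called in 9 of 20 alternative settings, and it was not called without tumor 1, tumor 2 or any 1 healthy skin array (0.0606 to 0.112). Of 5 inhibitor and uncoupling proteins none was called.

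Markers of striated muscle moved with the muscle isoforms. Of 23 skeletal muscle genes, 20 were lower and 1 higher, with a median of -4.47 on the log2 scale, and their summed signal, in units of the array's 75th percentile, was 60.5 to 134 in tumors, against 2036 to 2768 in healthy skin. The genes not lower were those of slow fibres. Tnni1, slow troponin I, was higher (2.60 ± 0.43 SE, limma adjusted p = 0.00628, and 1.24 with normexp), and Myh7 (-0.27) and Tnnt1 (-0.36) were not called. For Tnni1 only 2 healthy skin arrays cleared the background, and for Myh7 only 2 tumor arrays, while Tnnt1 did so on all 6. Myh7 was dim in both groups (-4.18 to -3.62 in tumors, -4.10 to -3.36 in healthy skin), which left little room for a fall. A difference between fibre types was not tested. Of the 20 lower genes, the smallest fall was 3.23 on the log2 scale (Myh2) and the largest 6.29 (Pvalb), a range that holds the estimates of Cox6a2, Cox7a1 and Cox8b. Whether the muscle isoforms fell beyond what fewer muscle cells would give was not tested.

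Of 5 heart muscle genes 1 was higher and 0 lower, and their summed signal was 1.71 to 9.31 in tumors, against 0.988 to 1.54 in healthy skin. The higher one was Myl7, the atrial myosin light chain, which no healthy skin array showed well above background and which was at least 5.73-fold higher in tumors, taking the lowest signal well above background on each array as its floor. Of 6 smooth muscle genes 2 were lower. These were the smooth muscle myosin heavy chain Myh11 (-3.51 ± 0.35 SE, limma adjusted p = 0.00102) and Lmod1, which no tumor array showed well above background and which was at least 6.85-fold lower (adjusted p = 0.00248). Acta2, Tagln, Cnn1 and Smtn, the other 4, were not called. The list had a summed signal of 40.1 to 103 in tumors, against 40.0 to 114 in healthy skin.

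Fat markers moved too. Of 9 tested white adipocyte genes 7 were lower, with a median of -4.43, while Fabp4 (0.90) and Lipe (0.48) were not called. Their summed signal was 67.8 to 220 in tumors, against 131 to 536 in healthy skin. In tumors most of that sum came from Fabp4 alone. Its log2 signals were 7.42, 7.57 and 5.99 in tumors, against 5.30, 6.14 and 6.86 in healthy skin. Of 5 tested brown adipocyte genes 3 were lower (Cidea, Elovl3 and Zic1), while Dio2 and Lhx8 were not called. The summed signal of the 5 was 11.1 to 20.4 in tumors, against 33.2 to 71.4 in healthy skin. Most of that sum came from Cidea alone, with log2 signals of 4.08, 3.39 and 4.19 in tumors, against 4.91, 6.05 and 6.04 in healthy skin. Ucp1, the defining gene of brown fat, was well above background on at most 1 array and was not tested. The other genes of this list do not by themselves establish brown fat in these biopsies. Which cells made their RNA was not tested. The part of fat cells in the change of Cox7a1 and Cox8b was not tested.

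Epidermal keratinocyte genes, the markers of the labelled tissue, were present in both groups, with a summed signal of 885 to 1018 in tumors, against 1103 to 1684 in healthy skin, and 1 of 8 was higher and 2 lower. Of 7 tested leukocyte genes 1 was higher and 2 lower (sums of 167 to 205 in tumors, against 288 to 533 in healthy skin), and of 6 genes of proliferating cells 4 were higher and 0 lower (31.5 to 72.5 in tumors, against 15.4 to 16.1 in healthy skin). Across all features 10.3% were higher and 15.6% lower, and these small counts were not tested against those shares.

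Probes along the same transcript set the healthy skin 3 array apart. In 14 genes of the set, 2 probes lay at least 100 bases from each other on the same transcript, and the downstream minus the upstream signal was highest on healthy skin 3 in 12 of them. The median of that difference was 1.14, 1.08 and 1.09 in tumors, against 1.19, 1.14 and 2.02 in healthy skin. For Cox7a2l, a factor of respiratory supercomplex assembly, it was 1.94, 2.02 and 2.15 in tumors, against 2.33, 2.31 and 5.17 in healthy skin. For Sdhb it was 1.89, 1.85 and 1.85 in tumors, against 2.25, 2.14 and 4.57 in healthy skin. Healthy skin 3 alone stood apart in both genes. Its RNA integrity number is 9 in the labels, as is that of the other samples, and the part of RNA quality was not tested.

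**Figure D4:**
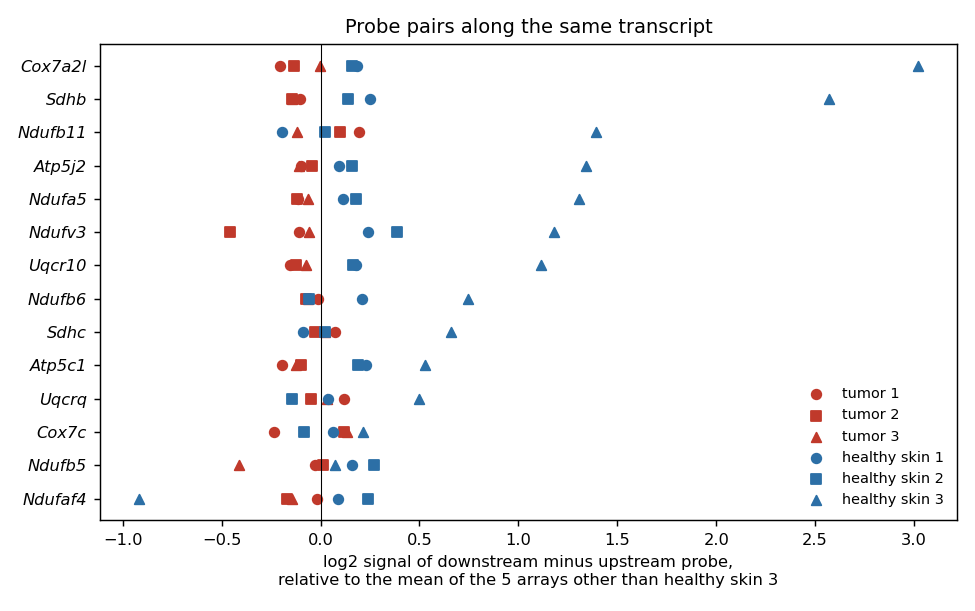
Log2 signal of the downstream minus the upstream probe of the same transcript, less the mean over the 5 arrays other than healthy skin 3 (horizontal axis), for 14 genes of the set, with tumor arrays in red and healthy skin arrays in blue. Healthy skin 3 (blue triangles) is the highest array in 12 of the 14 genes.

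Healthy skin 3 was also the highest healthy skin array in 55 of the 88 tested genes, and tumor 1 was the highest tumor array in 73. Shares over all features are not given here, so these counts cannot be read as a trait of the set. Without healthy skin 3, tumors differed from healthy skin in 5458 features (22%; 13.1% lower, 8.98% higher), with 3 genes of the set lower and 0 higher. Without both healthy skin 3 and tumor 1, a setting added after the data had been seen, 5157 differed (20.8%; 12.2% lower, 8.61% higher), with 3 genes of the set lower and 1 higher. Cox6a2, Cox7a1 and Cox8b were the lower genes both times.

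**Figure D5:**
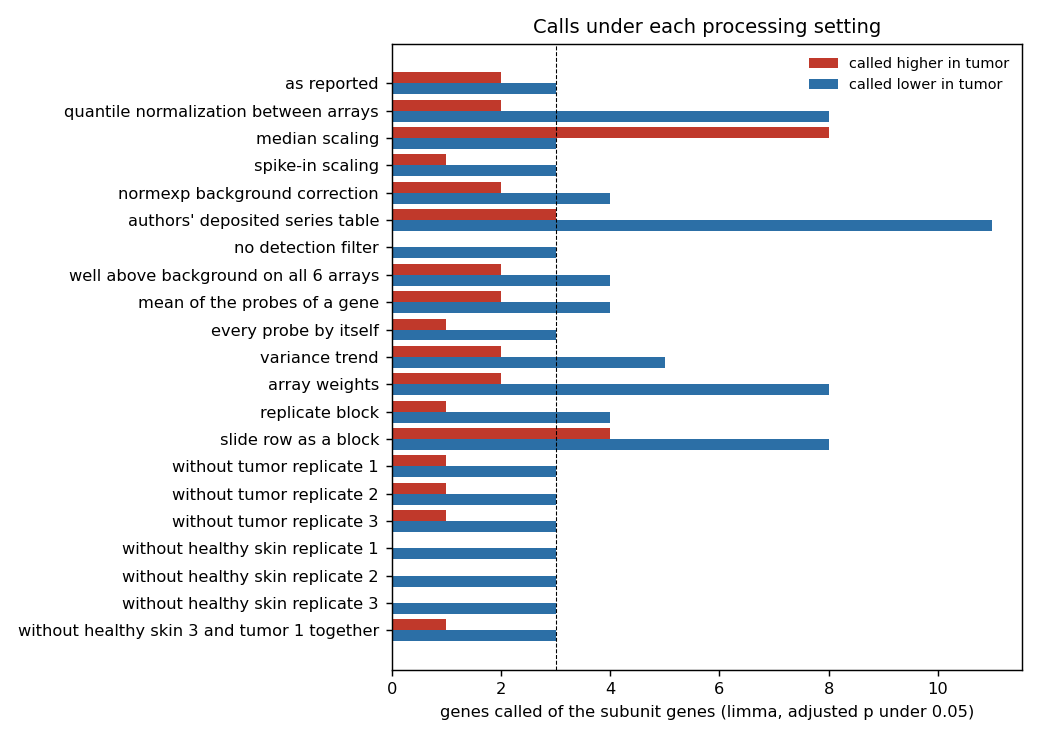
Number of the set's genes called higher (red) and lower (blue) in tumor (horizontal axis) under the processing used here, at the top, and under 20 alternatives (vertical axis), with a dashed line at 3. Between 3 and 11 genes were called lower, always including Cox6a2, Cox7a1 and Cox8b, and between 0 and 8 were called higher.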

How the data were processed

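The scanner files deposited by the authors hold intensity values extracted with Agilent's Feature Extraction software, version 10.7.3.1, per the file headers, with a background taken off each spot. Per the submitters' processing notes limma was used, with no version given. The series table deposited by the authors holds log2 values that rank each array exactly as its median spot signals do (Spearman correlation 1); its centring is not given in the sources used here. Flag columns deposited by the authors (other) gave detection and outliers.

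Here, the processed signals were put on the log2 scale and aligned at the 75th percentile of every array. Outlier spots were left out (180 of 55681 probes lost), spots of a probe were averaged, a probe had to be well above background on 3 or more of the 6 arrays (34284 were), and the brightest probe stood for its gene, giving 24757 features. No spot was saturated. Tumor and healthy skin were set against each other in limma 3.58.1 under R 4.3.3 (lmFit, eBayes, two-sided, Benjamini-Hochberg), and muscle isoforms with their counterparts by exact permutation of the 6 arrays. The fits were tested on simulated data with 50 planted changes of each size. Recovered were 1 at log2 size 1, 15 at size 2, 36 at size 3 and 45 at size 4. In the simulation, most changes of log2 size 1 or 2 were therefore missed. The planted changes were a far smaller share of features than the 25.9% called in the data. A smaller share makes the adjusted threshold stricter, so these counts do not give the sensitivity of the comparison itself. Members of the set and lists were chosen with earlier results of these data known. Named genes were the isoforms, Sdha to Sdhd, called genes, the gene of each complex closest to 0 and, of each list, up to 3 called genes and a fixed panel; others, such as those near the threshold, were named after their values were seen. Gene names came from RefSeq (GRCm38.p6). The number of arrays limits the precision. Some single-gene results are not reported here.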

Additional observations from a re-analysis of the deposited data

How the results depend on the processing

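Cox6a2, Cox7a1 and Cox8b were lower and called in all 20 alternatives (log2 fold changes of -5.43 to -4.28, -4.70 to -3.46 and -5.39 to -4.46). Their shifts relative to their counterparts ran from -5.78 to -5.30, -4.56 to -4.07 and -5.88 to -5.35 over 16 alternatives. All features called numbered 2646 with spike-in scaling, 3920 without a detection filter, 9858 with array weights and 3840 to 5458 without single arrays. The set's higher genes numbered 8 with median scaling (17.7% of all features higher), 4 with the slide row as a block (13%), 1 with spike-in scaling (7.46%) or each probe by itself (10.1%), 0 without a filter (4.1%), 1 without both healthy skin 3 and tumor 1, and 0 to 1 without single arrays. Its lower genes numbered 8 with quantile normalization (13%), array weights (22.7%) or the slide row as a block (21.1%), 11 in the authors' deposited values (14.1%), 5 with a variance trend (15.3%) and 3 without any 1 array. With the row as a block the contrast rests on healthy skin 3 and the tumors alone, since row 1 holds healthy skin only. The median of the other genes was 0.35 after median and 0.86 after spike-in scaling, where the median of all features was 0.21 and 0.71; without single arrays it ran from -0.15 to 0.12. Of the called features, 39.8% were higher here, 62.9% with median and 69.8% with spike-in scaling. The cause of these differences was not tested. Ndufab1 was called in 15 and Cox4nb in 7 of the 20. Near the threshold, Cox6b2 was called in 7, Ndufaf1 in 5, Ndufs7, Ndufa5 and Ndufb4 in 3 each, and Ndufa4 in 2.

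With the replicate number as a block, 5470 features were called, 1 of the set higher and 4 lower, the fourth being Cox6b2 (adjusted p = 0.0387). Same-numbered arrays correlated at 0.10, 0.13 and -0.08 in their deviations from the group means, and differently numbered arrays at -0.27 to 0.17. With so few arrays, these values cannot decide whether the numbers pair the samples.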

Other observations

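Higd1a, a hypoxia-induced protein that associates with cytochrome c oxidase, lay just outside the threshold in the list of inhibitor and uncoupling proteins and was named after its value was seen. Its log2 signals were 5.19, 4.26 and 3.87 in tumors, against 2.91, 3.65 and 2.54 in healthy skin. All tumors lay above all healthy skin samples, with tumor 1 the highest (1.41 ± 0.45 SE, limma adjusted p = 0.0546). It passed the test in 4 of 20 alternative settings, among which the adjusted p ran from 0.0233 to 0.167.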
